A study of Mus musculus with 908 samples.

Results

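The 7 genes described here are the transcripts of MHC class II presentation: Cd74, H2-Aa, H2-Ab1, H2-Eb1, H2-DMa, H2-DMb1 and the transactivator Ciita. They were taken by symbol and are 7 of the 46517 gene rows measured in sorted cells of a mouse skin squamous cell carcinoma model. Each of the 7 symbols named 1 row. The study asked how resistance to immunotherapy relates to the cells that initiate tumours. Tumour cells were sorted untreated or following an infusion of T cells (adoptive cell transfer), and the RNA of 1 cell per well was sequenced by Smart-seq2, a full-length protocol. A gene was called found in a cell at a TPM of at least 1, where TPM is a share of a library's transcripts corrected for gene length.

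There were 5 groups, and each carried an inducible activated Hras transgene (TRE-HrasG12V), from mice of age P60-P90 labelled as mixed in sex. The cells after transfer came from tumours of the strain TRE-OVA;TRE-HrasG12V:PGK-rtTA3P2AmCherry, in which ovalbumin is an inducible antigen, and were sorted on mCherry alone, with no gate on integrin α6, CD34 or CD44. The groups before transfer came from TRE-HrasG12V;SBE-mCherry-PGK-rtTA3 tumours, where mCherry reports SMAD-dependent TGF-beta signalling. Reporter-positive cells were mCherry+, α6+, CD34+ and CD44+. Reporter-negative CD44+ cells were α6+ and CD44+ without mCherry or CD34, CD44-negative α6+ cells lacked mCherry, CD34 and CD44, and α6-negative cells lacked α6 as well. Each gate was also negative for CD31, CD45, CD117 and CD140a, surface markers of endothelium, of leukocytes, of mast cells and melanocytes, and of fibroblasts. Strain, antigen and gate all differ between the cells after transfer and those before it, and their parts in a difference cannot be told apart. The labels name no animal, so each group was 1 sample, and no test between groups could be made.

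MHC class II molecules show peptides to CD4 T cells. An α chain (H2-Aa) and a β chain (H2-Ab1) form the H2-A heterodimer, and H2-Eb1 encodes the β chain of H2-E. The invariant chain Cd74 holds the groove shut and guides the dimer to endosomes, where the H2-DM heterodimer of H2-DMa and H2-DMb1 exchanges the remnant of the invariant chain for peptide. Ciita is a co-activator that does not bind DNA itself. It is recruited to the class II promoters by RFX, CREB and NF-Y proteins, is inducible by interferon-gamma, and is required for most class II transcription. In skin, class II is best known from Langerhans cells and dermal dendritic cells, and keratinocytes can express it under interferon-gamma.

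The promoters are printed because class II genes share a conserved module, the X and Y boxes, and their transcripts were found together in cells. In the annotation of build GRCm38, Ciita lies on the plus strand of chr16:10480059-10528418. H2-DMa (chr17:34119541-34139101), H2-DMb1 (chr17:34153072-34160230), H2-Ab1 (chr17:34257689-34269419) and H2-Eb1 (chr17:34305867-34316674) lie on the plus strand of the MHC, and H2-Aa (chr17:34282744-34287823) lies on its minus strand. Promoter windows of 250 bases before to 50 bases after the start, from RefSeq in build GRCm38.p6, were used for 4 of the 7 members. The windows below are chr17:34287774-34288073 on the minus strand for H2-Aa, chr17:34305617-34305916 on the plus strand for H2-Eb1 and chr17:34152941-34153240 on the plus strand for H2-DMb1. Each is printed 5′ to 3′ in the direction of its gene, and capitals mark matches to CTAGNAAC (the core of the X1 box), TGACGTCA (a CRE-like X2 box) or GATTGG (the Y box, an inverted CCAAT), searched on both strands.
H2-Aa: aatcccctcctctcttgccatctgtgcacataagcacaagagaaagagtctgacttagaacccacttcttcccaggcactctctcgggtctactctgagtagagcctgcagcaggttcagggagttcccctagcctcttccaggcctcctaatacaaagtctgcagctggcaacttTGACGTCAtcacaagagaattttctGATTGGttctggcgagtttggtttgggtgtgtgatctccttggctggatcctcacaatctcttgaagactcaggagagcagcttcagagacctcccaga
H2-Eb1: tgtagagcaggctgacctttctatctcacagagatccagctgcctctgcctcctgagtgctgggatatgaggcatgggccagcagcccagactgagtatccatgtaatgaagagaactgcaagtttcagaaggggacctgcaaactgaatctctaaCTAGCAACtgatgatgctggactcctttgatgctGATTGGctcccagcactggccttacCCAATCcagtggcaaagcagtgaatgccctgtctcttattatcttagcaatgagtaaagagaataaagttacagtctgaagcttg
H2-DMb1: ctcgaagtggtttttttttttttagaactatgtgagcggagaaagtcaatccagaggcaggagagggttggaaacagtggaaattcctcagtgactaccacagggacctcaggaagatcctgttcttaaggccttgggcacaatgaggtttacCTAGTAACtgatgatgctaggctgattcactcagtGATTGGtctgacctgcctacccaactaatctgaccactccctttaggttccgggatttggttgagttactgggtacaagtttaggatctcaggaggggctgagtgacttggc

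CTAGNAAC began 94 bases before the start of H2-Eb1 and 97 bases before that of H2-DMb1, and GATTGG began 60 and 62 bases before the start of the same genes. A second Y box, in the reverse orientation, began 35 bases before the start of H2-Eb1. In H2-Aa, TGACGTCA and GATTGG began 74 and 49 bases before the start. Among all 32851 RefSeq promoter windows of this length, 3.62% held CTAGNAAC, 16.1% held GATTGG and 1.79% held TGACGTCA. CTAGNAAC and GATTGG stood in the same window in 0.518% of promoters, H2-Eb1 and H2-DMb1 among them. Of the windows for H2-DMa, the first (chr17:34122582-34122881) held none of the 3 motifs and the other (chr17:34125268-34125567) held GATTGG alone. These matches are letters in a window and were not tested as sites of binding.

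Once libraries under 2000 genes and plates of repeated wells were set aside, the compared cells were 87 and 90 after transfer (plates OT2 and OT_B), 73 and 32 reporter-positive (plates CSC1 and CSC2), 15 reporter-negative CD44+, 91 CD44-negative α6+ and 43 α6-negative. Their median numbers of genes, in this order, were 6657, 7760, 7222, 6810 and 5521. Keratinocyte markers led in every cell after transfer, every reporter-positive cell and every CD44-negative α6+ cell, in 12 of 15 reporter-negative CD44+ cells and in 26 of 43 α6-negative cells, where 13 were led by fibroblast markers, 2 by pericyte or muscle markers and 2 by the list for Langerhans cells. Those last 2 cells had Mfge8 of that list but neither Cd207 nor Cd1d1, so they are not named as Langerhans cells, and neither had a chain gene. Labels were in conflict for some wells. By whole profiles, all but 7 reporter-positive and 15 of 15 reporter-negative CD44+ libraries matched a library labelled after transfer on plates that were set aside, and no CD44-negative α6+ or α6-negative library did. Values of these 2 groups, and comparisons of them with the group after transfer, therefore rest on the labels of the plates used. The gate genes were read as transcripts. Cd34 had a mean of 0.935 TPM after transfer, 5.46 TPM in reporter-positive cells, 0.258 TPM in reporter-negative CD44+ cells and 0.553 TPM in CD44-negative α6+ cells. Among these groups it was highest in the 1 gate that selects CD34. It was, however, lower in CD44-negative α6+ than in α6-negative cells (log2 fold -2.865). Both of those gates lack CD34, so over all groups Cd34 transcript did not follow the gate. Cd44 had means of 148.8, 372.3, 73.17 and 139.4 TPM and Itga6, the gene of integrin α6, 43.4, 87.5, 28.5 and 45.3 TPM, in the order after transfer, reporter-positive, reporter-negative CD44+ and CD44-negative α6+. Cd44 transcript was thus lower on average in the reporter-negative cells labelled CD44+ than in those labelled CD44-negative, against the order of the labels, which refer to the surface protein, and each comparison of these groups below rests on the labels. Xist without Y-linked transcripts was found in 12 of 15 reporter-negative CD44+ cells and in 42 of 91 CD44-negative α6+ cells. In the groups after transfer, reporter-positive and α6-negative no cell had Xist alone, and Y-linked transcripts were found in 170, 99 and 39 of their cells. For the reporter-negative CD44+ group, gate and sex of the animal cannot be told apart.

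Cd74, the invariant chain, was found in 16 cells after transfer, 24 reporter-positive cells, 6 of 15 reporter-negative CD44+ cells, 24 of 91 CD44-negative α6+ cells and 1 of 43 α6-negative cells. These shares were 9.04% (exact 95% interval 5.26 to 14.3), 22.9% (15.2 to 32.1), 40% (16.3 to 67.7), 26.4% (17.7 to 36.7) and 2.33% (0.0589 to 12.3), and all such intervals cover counting error only. The intervals of the reporter-negative CD44+, CD44-negative α6+ and reporter-positive cells overlap. The interval after transfer lies below that of the reporter-positive cells, and it overlaps that of the α6-negative cells. By plate, the share was 28.8% on CSC1 and 9.38% (1.98 to 25.02) on CSC2, against 11.5% on OT2 and 6.67% on OT_B. The gap between reporter-positive cells and those after transfer thus rests on CSC1, as the CSC2 interval overlaps that after transfer. In every group the lowest and median cell were at 0 TPM. The highest cell had 89.4 TPM after transfer, 192.95 TPM among reporter-positive cells, 729 TPM among reporter-negative CD44+ cells, 1236 TPM among CD44-negative α6+ cells and 33.8 TPM among α6-negative cells. Mean Cd74 levels in the same order were 2.07, 4.27, 102.01, 37.5 and 0.786 TPM. A few cells set these means: the 3 highest held 61.2% of the Cd74 sum after transfer, 63.9% of the reporter-positive sum, 93.1% of the reporter-negative CD44+ sum and 77.7% of the CD44-negative α6+ sum. No cell after transfer passed 100 TPM, against 7 of 91 CD44-negative α6+ cells.

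**Figure D1:**
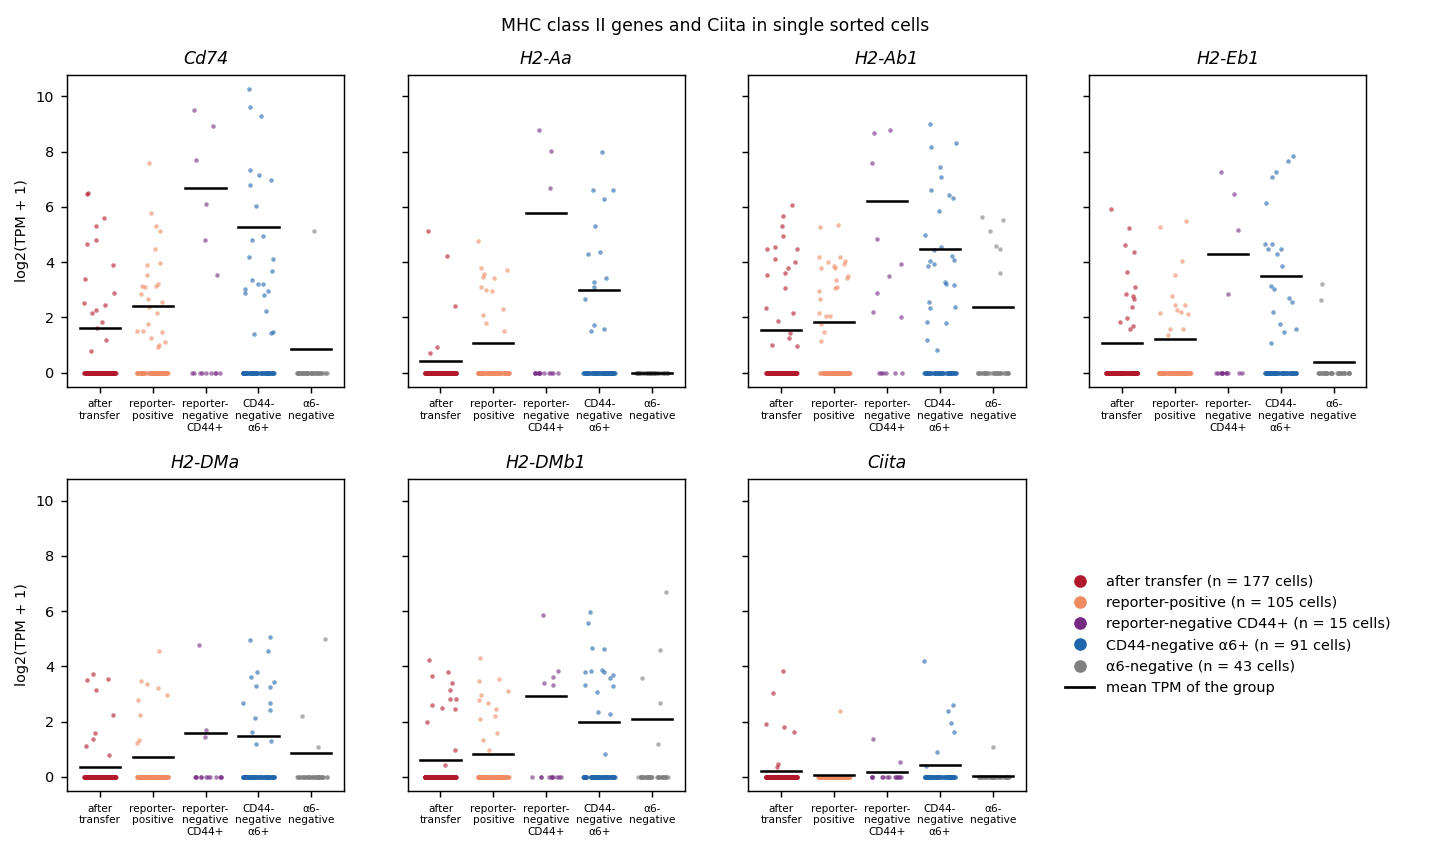
Levels of the 7 members in log2(TPM + 1), by group, with 1 point per cell and a bar at the group's mean TPM on the same scale. Most cells sit at 0, and the points above 100 TPM are mainly from CD44-negative α6+ and reporter-negative CD44+ cells.

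H2-Aa, the α chain of H2-A, was found in the fewest cells of any chain gene. It was found in 3 cells after transfer, 13 reporter-positive cells, 3 of 15 reporter-negative CD44+ cells and 14 of 91 CD44-negative α6+ cells. The highest of these cells had 34.2, 26.1, 440 and 249.6 TPM in that order. H2-Aa was listed at 0 in all 43 α6-negative cells, which allows a share of up to 6.98%. The 3 reporter-negative CD44+ cells with H2-Aa held its whole sum in that group, and each was above 100 TPM.

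H2-Ab1, the β chain that pairs with H2-Aa, was the member found most often, in 82 of the cells compared. It was found in 18 cells after transfer (10.2%), 23 reporter-positive cells (21.9%), 9 reporter-negative CD44+ cells (9 of 15), 26 CD44-negative α6+ cells (28.6%) and 6 α6-negative cells (13.95%). The reporter-negative CD44+ group was the one group with a median above 0, at 3.51 TPM. Its exact 95% interval (32.3 to 83.7) lay above those of the groups after transfer (6.14 to 15.6) and α6-negative (5.30 to 27.9). It lay just above that of the reporter-positive cells (14.4 to 31.03) and overlapped that of the CD44-negative α6+ cells (19.6 to 39). Among the 15 cells, a pair matched each other by profile (r 0.9233), and both had H2-Ab1, at 3.51 and 14.31 TPM. If both came from the same cell, the interval is too narrow, and its small gap to the reporter-positive interval is not firm. The highest level of H2-Ab1 was 66.6 TPM after transfer, 39.2 TPM among reporter-positive cells, 440 TPM among reporter-negative CD44+ cells and 48.3 TPM among α6-negative cells. Among CD44-negative α6+ cells, 5 had over 100 TPM of H2-Ab1.

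H2-Eb1, the β chain of H2-E, was found in 14, 14, 4, 20 and 2 cells in the order after transfer, reporter-positive, reporter-negative CD44+, CD44-negative α6+ and α6-negative. Its mean levels were 1.07, 1.35, 18.7, 10.4 and 0.312 TPM, so it followed Cd74 in being highest on average in reporter-negative CD44+ cells. The sources used here do not say how reads shared with the related gene H2-Eb2 were assigned, and H2-Eb2 was at 0 in the groups compared. The partner α chain locus of H2-E, listed as the pseudogene H2-Ea-ps, was at 0 in the same cells.

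H2-DMa and H2-DMb1, the chains of the peptide exchanger, were low in most cells. H2-DMa was found in 8, 9, 3, 15 and 3 cells and H2-DMb1 in 11, 12, 5, 15 and 5 cells, in the same order of groups. Mean levels of H2-DMa stayed between 0.284 TPM after transfer and 2.03 TPM in reporter-negative CD44+ cells. Mean H2-DMb1 levels were 0.510 TPM after transfer, 0.773 TPM in reporter-positive cells, 6.65 TPM in reporter-negative CD44+ cells, 2.92 TPM in CD44-negative α6+ cells and 3.30 TPM in α6-negative cells. Among α6-negative cells 1 cell had 101.39 TPM of H2-DMb1 with each of the other members at 0. Reads shared between H2-DMb1 and its near copy H2-DMb2 make the split between these genes uncertain, and the mean of H2-DMb2 was under 1 TPM in all groups.

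Ciita, the transactivator, was found in 13 cells: 5 after transfer, 1 reporter-positive, 1 reporter-negative CD44+, 5 CD44-negative α6+ and 1 α6-negative. Its highest levels were 13.2, 4.23, 1.60, 17.1 and 1.12 TPM in that order. Mean levels were under 1 TPM in all groups.

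**Figure D2:**
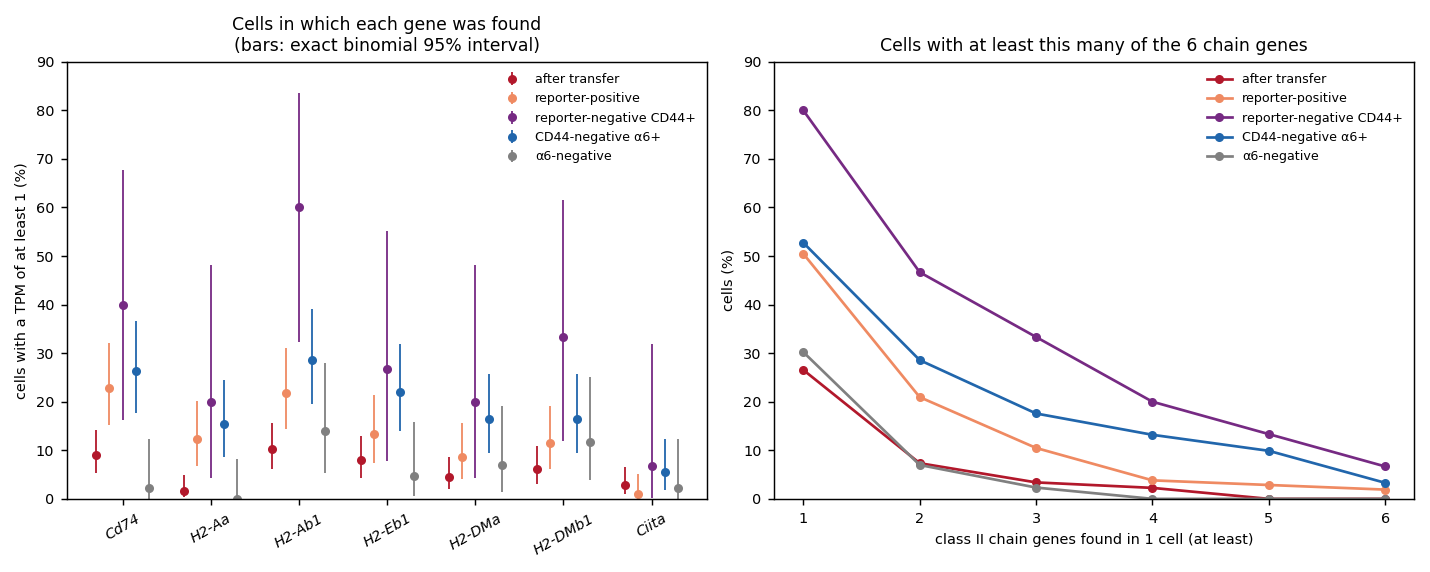
Percent of cells in which each member was found (TPM of at least 1), by group, with exact 95% binomial intervals. H2-Ab1 is found in 9 of 15 reporter-negative CD44+ cells, and the intervals of that group of 15 cells are the widest.

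Group means were then compared as log2 folds of the mean TPM plus 1, and a gene was counted when it was at least 2-fold apart. Genes with a mean of at least 1 TPM in either group were compared across the whole table. A member under 1 TPM in both groups cannot reach 2-fold with 1 TPM added, and Ciita was under it in every comparison. The comparisons share groups, so they are not independent of each other, and none carries a p-value. Fewer cells with a transcript and less of it per cell both lower a mean.

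Between cells after transfer and reporter-positive cells, the class II folds were under 2-fold, and the sign and the size of the summed fold depended on the plates and libraries used. None of the 7 members was at least 2-fold higher and none was at least 2-fold lower, where 3.17% of 11711 genes compared were higher and 8.6% were lower. Only 4 of the 7 reached the level at which those genes were compared. H2-DMa, H2-DMb1 and Ciita were under 1 TPM in both groups and could not be called. The 6 chain genes summed to a mean of 6.17 TPM per cell after transfer and 10.7 TPM in reporter-positive cells, a log2 fold of -0.70. It was 0.85 with the reporter-positive plate CSC1 left out and 0.57 with all 6 plates that carry the label after transfer. It passed 2-fold lower, at -1.34, among libraries with 6000 to 8000 genes, at -1.17 with no gene minimum, at -1.15 with OT_B alone and at -1.07 without CSC2.

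Against CD44-negative α6+ cells, the cells after transfer had lower levels of all 6 chain genes. Cd74 had a mean of 2.07 TPM after transfer and 37.5 TPM in CD44-negative α6+ cells (log2 fold -3.65). H2-Ab1 had means of 1.91 and 21.2 TPM (-2.94), H2-Aa 0.326 and 6.97 TPM (-2.59) and H2-Eb1 1.07 and 10.4 TPM (-2.46), after transfer first. H2-DMb1 (-1.38) and H2-DMa (-1.10) differed less. Ciita, with means of 0.160 and 0.358 TPM, was too low to be called. Thus 6 of 7 members were at least 2-fold lower, where 4.71% of 11503 genes were lower, and 0 were higher, where 3.91% of genes were higher. The summed fold was -3.51, and -2.22 among libraries with 6000 to 8000 genes.

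Reporter-positive cells had lower class II levels than both reporter-negative α6+ groups. Against reporter-negative CD44+ cells, 5 of 7 members were at least 2-fold lower (all genes 16.5% of 12928) and 0 were higher (all genes 12.6%). The log2 folds were -4.70 for H2-Aa, -4.40 for H2-Ab1, -4.29 for Cd74, -3.07 for H2-Eb1 and -2.11 for H2-DMb1. Among libraries with 6000 to 8000 genes, which leave out the 3 highest reporter-negative CD44+ cells, the log2 fold of the summed chains was -0.52, against -4.46 in all. Against CD44-negative α6+ cells, the same 5 members were lower (all genes 4.78% of 11887) and 0 were higher (all genes 9.8%), with log2 folds from -2.87 for Cd74 to -1.15 for H2-DMb1. The summed fold there was -2.81, and -0.88 among libraries with 6000 to 8000 genes. Reporter-positive cells had transcripts nonetheless: at least 1 chain gene was found in 53 reporter-positive cells (50.5%), in 12 of 15 reporter-negative CD44+ cells and in 48 of 91 CD44-negative α6+ cells (52.7%). Summed over the 6 chains, 2 reporter-positive cells, 3 reporter-negative CD44+ cells and 11 CD44-negative α6+ cells had over 100 TPM, and the highest reporter-positive cell had 321.8 TPM.

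Reporter-negative CD44+ cells had higher Cd74, H2-Aa and H2-Ab1 than CD44-negative α6+ cells. Cd74 had means of 102.01 and 37.5 TPM (log2 fold 1.42), H2-Aa 53.5 and 6.97 TPM (2.77) and H2-Ab1 73.7 and 21.2 TPM (1.75), reporter-negative CD44+ cells first. So 3 of 7 members were at least 2-fold higher, where 16.8% of 12612 genes were higher, and 0 were lower, where 6.18% were lower. The reporter-negative CD44+ mean came from 3 cells, which held 94.4% of the summed chains, and they were 5239, 5433 and 8015 genes deep. Among libraries with 6000 to 8000 genes, where none of the 3 remains, the summed fold turned to -0.36.

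CD44-negative α6+ cells had higher levels than α6-negative cells for Cd74 (37.5 and 0.786 TPM, log2 fold 4.43), H2-Eb1 (10.4 and 0.312 TPM, 3.12) and H2-Ab1 (21.2 and 4.22 TPM, 2.09). H2-Aa, at 6.97 TPM in CD44-negative α6+ cells, was listed at 0 in α6-negative cells. That made 4 of 7 members at least 2-fold higher, where 8.66% of 13507 genes were higher, and 0 lower, where 25.7% were lower. Within the α6-negative gate, a chain gene was found in 12 of 26 keratinocyte-led cells and in 1 of 17 cells led by other markers. Between keratinocyte-led cells alone, the summed chains were still higher in CD44-negative α6+ cells (log2 fold 2.31).

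**Figure D3:**
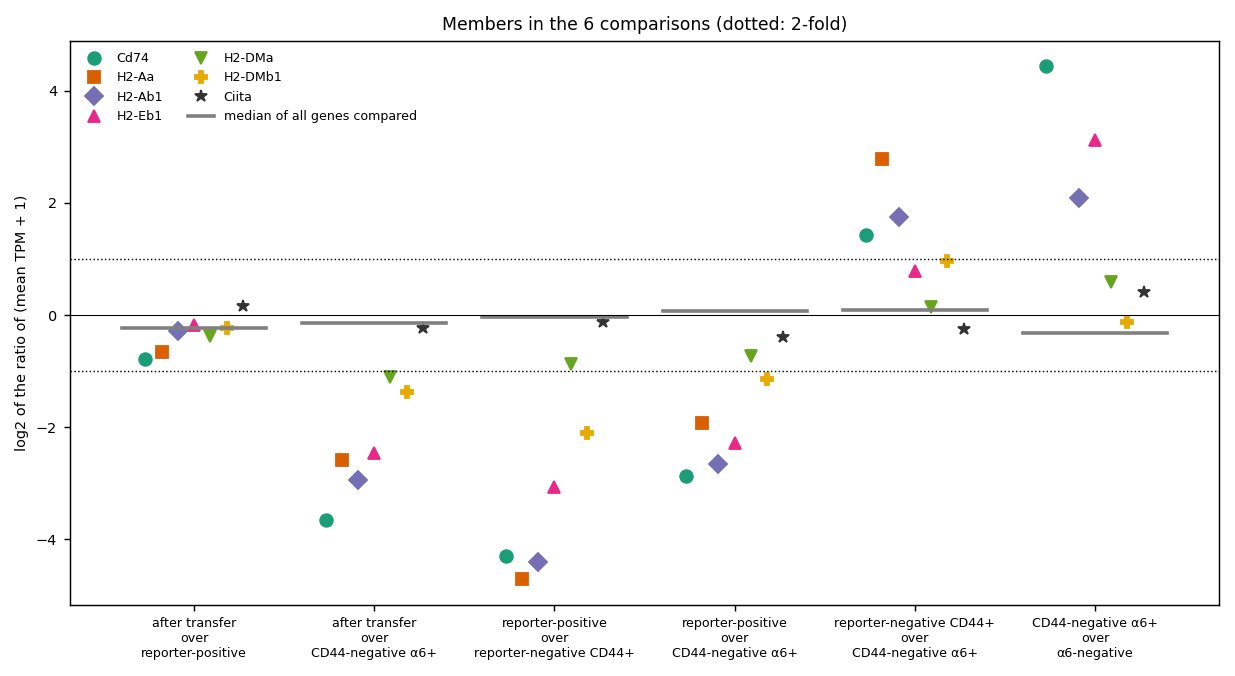
Log2 fold of mean TPM plus 1 for each member in each of the 6 comparisons, with dotted lines at 2-fold and grey bars at the median of all genes compared. H2-Aa is not drawn for CD44-negative α6+ over α6-negative cells because it was listed at 0 in the α6-negative cells, and no fold after transfer over reporter-positive passes a dotted line. Ciita, under 1 TPM on average in all groups, could not pass a dotted line in any comparison.

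Chain genes found in the same cell were counted over all groups and within groups. Over all groups, H2-Ab1 was found in 37 of 71 cells with Cd74 (52.1%) and in 45 of 360 cells without it (12.5%). H2-Aa was rarely found on its own: 25 of its 33 cells also had Cd74 and 26 also had H2-Ab1. Within CD44-negative α6+ cells alone, H2-Ab1 was found in 15 of 24 cells with Cd74 and 11 of 67 without. After transfer it was found in 5 of 16 cells with Cd74 and in 8.08% of those without, and among reporter-positive cells in 11 of 24 with and 12 of 81 without. Of the 6 α6-negative cells with H2-Ab1, 0 had Cd74, H2-Aa or H2-Eb1. Those genes were found in only 1, 0 and 2 of the 43 cells of that gate, so little overlap was possible. H2-DMb1 was found in 3 of the 6, against 2 of 37 α6-negative cells without H2-Ab1. Over the CD44-negative α6+ cells, Pearson's r of log2(TPM + 1) across 91 cells was 0.741 between Cd74 and H2-Eb1, 0.735 between H2-Aa and H2-Ab1 and 0.273 between H2-DMa and H2-DMb1 (Spearman's rho 0.601, 0.611 and 0.161). The points share a plate and vary in depth, so these are descriptions. Of the DM chains, which act as a dimer, 9 of 38 cells with H2-DMa had H2-DMb1 over all groups (23.7%). Among cells without H2-DMa the share with H2-DMb1 was 9.92%, and the exact 95% intervals of these shares overlap.

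Cd74, H2-Aa and H2-Ab1 were all found in 2 cells after transfer (1.13%, exact 95% interval 0.137 to 4.02), 7 reporter-positive cells (6.67%, 2.72 to 13.3), 3 of 15 reporter-negative CD44+ cells (interval 4.33 to 48.1), 9 of 91 CD44-negative α6+ cells (9.89%, 4.62 to 17.95) and 0 of 43 α6-negative cells, which allows a share of up to 6.98%. All 7 reporter-positive cells with this trio came from plate CSC1. At least 3 of the 6 chain genes were found in 6, 11, 5, 16 and 1 cells in the same order, 39 in all. All 6 were found in 0, 2, 1, 3 and 0 cells. Of the 5 reporter-negative CD44+ cells with 3 or more chains, 2 matched each other by profile.

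**Figure D4:**
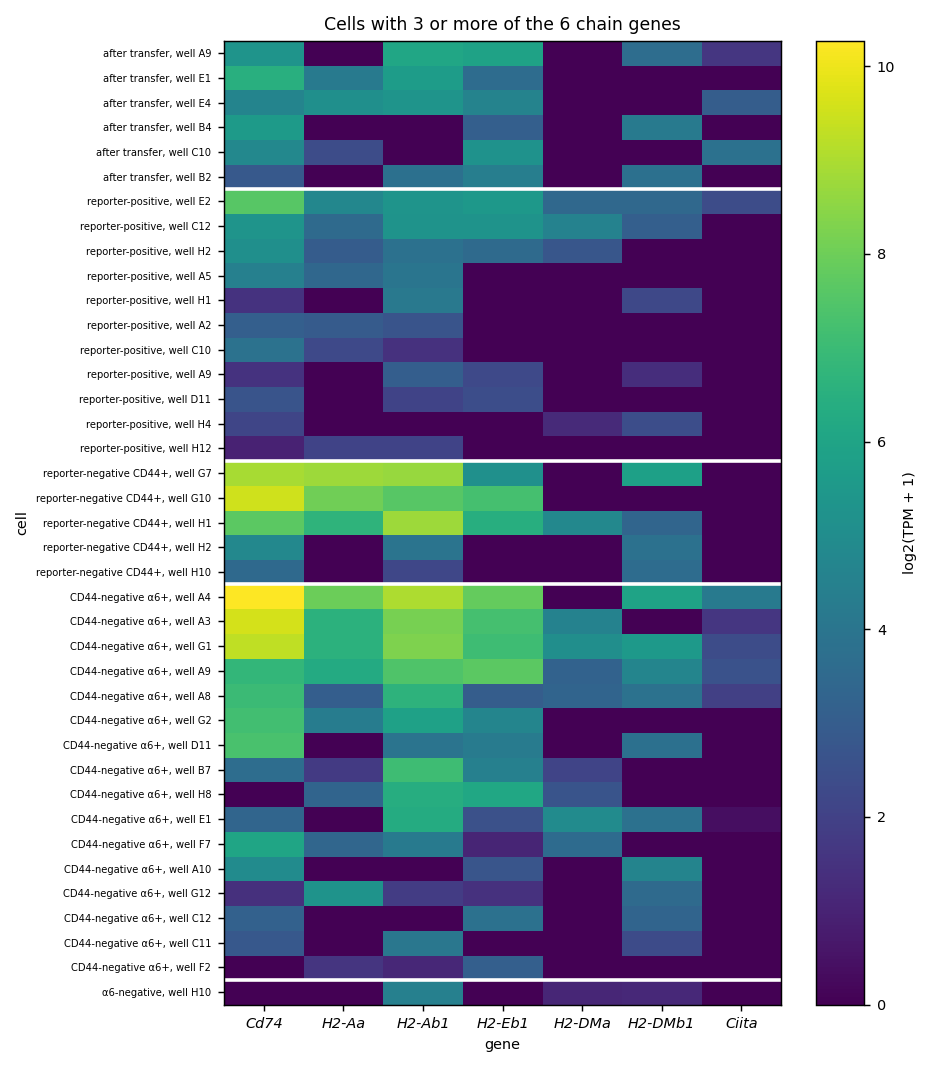
Levels in log2(TPM + 1) of the 7 members (columns) in the 39 cells with 3 or more chain genes (rows), with white lines between the groups. Cells of CD44-negative α6+ and reporter-negative CD44+ gates hold the highest levels, and H2-DMa and Ciita are at 0 in most of the 39 cells.

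Most of the cells with the highest levels were led by keratinocyte markers. The highest of all was a CD44-negative α6+ cell with 1236 TPM of Cd74, 249.6 TPM of H2-Aa, 227.8 TPM of H2-Eb1 and 17.1 TPM of Ciita. It had 2165.64 TPM of Krt14, a keratin of basal keratinocytes, and Ptprc, which encodes the leukocyte antigen CD45, was at 0. The next 2 CD44-negative α6+ cells had 790 and 627 TPM of Cd74 beside 2405 and 1383 TPM of Krt14. In the reporter-negative CD44+ group, the highest cells had 729 and 490.77 TPM of Cd74 with 1611 and 415.72 TPM of Krt14. The third reporter-negative CD44+ cell, with 204.79 TPM of Cd74 and all 6 chains, was led by fibroblast markers, with Krt14 at 0 and 127.42 TPM of the collagen gene Col1a1. After transfer, the highest Cd74 level was 89.4 TPM, in a cell with 5363 TPM of Krt14.

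Basal and immune genes were compared between CD44-negative α6+ cells with 3 or more chains and those with none. Krt15, a keratin of basal and hair follicle stem cells, was found in 12 of 16 cells with 3 or more chains and in 20 of 43 cells with none. B2m, the light chain of class I molecules, had a median of 441.9 TPM in the 16 cells and 83.5 TPM in the 43 cells with none. Krt14 medians were 4520 and 8025 TPM, 3 or more chains first. The cells with 3 or more chains had fewer genes, with a median of 6236.5 against 6930. Cd44 transcripts were found in all 91 cells of this gate, with medians of 71.8 TPM in cells with 3 or more chains and 134.4 TPM in cells with none, although the gate was negative for the surface protein. Class II was present in cells with either kind of sex-linked transcript: Cd74 was found in 9 of 42 cells with Xist and 14 of 44 cells with Y-linked transcripts. The 1 cell of this gate with both kinds had 790 TPM of Cd74.

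Markers of leukocytes were read in the same cells. Ptprc was found in 1 of the cells compared, a reporter-positive cell with no chain gene. Among reporter-positive cells, 1 or more of 7 macrophage or dendritic markers was found in 6 of 11 cells with 3 or more chains, 11 of 42 cells with 1 or 2 chains and 3 of 52 cells with none. Of these markers, Lyz2, the lysozyme of myeloid cells, was found in 5 of 11, 5 of 42 and 1 of 52 cells, while the receptor gene Csf1r was found in 0 of 11, 3 of 42 and 1 of 52 and Mrc1 in 0 of 11, 3 of 42 and 0 of 52. For the 6 general leukocyte markers, on CSC1, 1 or more was found in 3 of 10 cells with 3 or more chains, 9 of 35 with 1 or 2 and 11 of 28 with none, and on CSC2 in 1 of 1, 3 of 7 and 5 of 24. The 20 reporter-positive cells with a macrophage or dendritic marker had a mean of 38.3 TPM over the 6 chains, against 4.18 TPM in the 85 without. In reporter-positive cells, the summed macrophage or dendritic level reached 174.4 TPM, Adgre1 and Flt3 were in no cell, and the part of these markers in the class II level was not tested. Among CD44-negative α6+ cells, the 8 cells with a macrophage or dendritic marker had a mean of 15.7 TPM over the chains and the 83 without had 87.1 TPM. Of the 16 CD44-negative α6+ cells with 3 or more chains, 1 had a macrophage or dendritic marker and 0 had 1 of the 6 leukocyte markers. Cd207, a lectin of Langerhans cells, was found in 1 reporter-positive cell with 1 or 2 chains and 1 CD44-negative α6+ cell, and in no cell of the other groups. The CD44-negative α6+ cell had 63.9 TPM of Cd74 and 12.9 TPM of Cd207 beside 2420 TPM of Krt10, a keratin of differentiating keratinocytes. None of the 15 reporter-negative CD44+ cells had any of the 7 macrophage or dendritic markers, and 1 or more of the 6 leukocyte markers was found in 3 of 5 with 3 or more chains, 2 of 7 with 1 or 2 chains and 1 of 3 with none. After transfer, a leukocyte marker was found in 2 of 4 cells with 3 or more chains on OT2 and 2 of 2 on OT_B, against 4 of 60 and 7 of 70 cells with no chain. The cell after transfer with 13.2 TPM of Ciita was among these, with 61.79 TPM of Laptm5 and 24.76 TPM of Cd52, both genes of leukocytes. Of the 6 leukocyte markers, Ptprc, Tyrobp and Fcer1g were found in no cell after transfer, this cell included. The part of the leukocyte markers in these class II levels was not tested.

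The reporter-positive level differed between plates. On CSC1, the summed chains had a mean of 14.1 TPM over 73 cells and Cd74 was found in 21. On CSC2, the mean was 2.97 TPM over 32 cells and Cd74 was found in 3. The plates after transfer differed less, with means of 8.13 TPM on OT2 and 4.27 TPM on OT_B.

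Most cells with Ciita also had chain transcripts. Of the 13 cells with Ciita, 12 had a chain gene and 9 had 3 or more, and the median over the 13 cells was 177.2 TPM of summed chains. Cells without Ciita had a median of 0 TPM, and 30 of them had 3 or more chains. All 5 CD44-negative α6+ cells with Ciita had 3 or more chains and 260 to 2286 TPM over them, against 11 of 86 cells without Ciita with 3 or more chains. Class II was high in some cells with no Ciita read: the reporter-negative CD44+ cell with 490.77 TPM of Cd74 had 1431 TPM over the chains and Ciita at 0. After transfer, 1 cell with 2.45 TPM of Ciita had no chain gene.

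Repeat libraries give the technical error of these readings. Pairs of libraries with matching profiles were sought without the members: 72 joined CSC1 with OT_C, 68 OT2 with OT_A, 58 OT1 with OT_B, 26 CSC2 with OT_D and 17 the reporter-negative CD44+ plate with OT_D, and 4 lay within a plate. Cd74 was found in both libraries of 41 of the 52 pairs in which it was found at all, and in both of all 27 pairs where the higher reading was at least 10 TPM. H2-Ab1 was found in both of 44 of 64 such pairs, and in 28 of 35 where the higher reading was at least 10 TPM. The repeat of H2-Ab1 differed between plates: it was found in both of 8 of 21 pairs within the plates after transfer (38.1%, exact 95% interval 18.1 to 61.6), against 34 of 41 pairs of a plate labelled before transfer with OT_C or OT_D (82.9%, 67.9 to 92.9). At 10 TPM or more these were 7 of 12 and 20 of 22, and the part of this in the group comparisons of H2-Ab1 was not tested. Ciita was found in both libraries of 5 of 5 pairs. At least 3 chains were found in either library of 28 pairs and in both of 21. The reporter-negative CD44+ cell with 729 TPM of Cd74 had 665 TPM in its repeat.

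**Figure D5:**
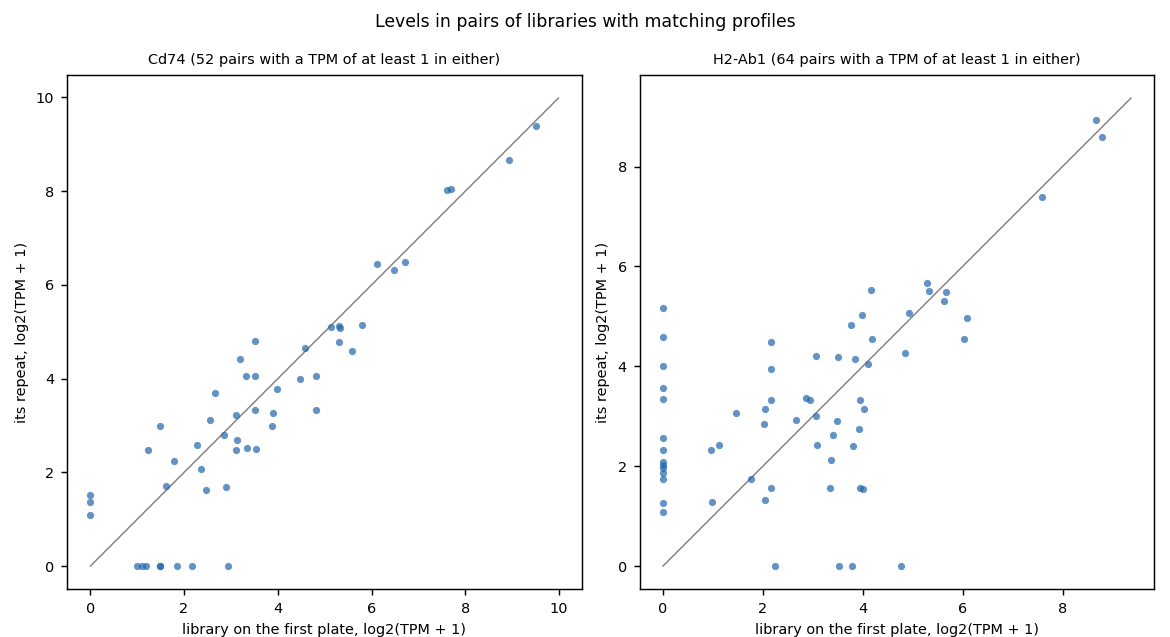
Cd74 (52 pairs) and H2-Ab1 (64 pairs) in the first library (horizontal) and its repeat (vertical) of each pair, in log2(TPM + 1). The line marks equal readings. Cd74 readings of at least 10 TPM were found in both libraries, while 7 of 35 H2-Ab1 pairs at that level had it in 1 library alone.

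Other genes of the pathway were read from lists. Of 11 other class II locus and loading genes, H2-Oa and H2-Ob, the chains of the DM inhibitor DO, were at 0 in all groups, and Ctss, the cathepsin that trims the invariant chain in antigen-presenting cells, stayed under 1 TPM on average. Ctsl, the related cathepsin L, had a mean of 33.02 TPM after transfer, 130.7 TPM in reporter-positive cells, 16.01 TPM in reporter-negative CD44+ cells and 22.7 TPM in CD44-negative α6+ cells. March8, a ubiquitin ligase of membrane proteins, had 4.69 TPM after transfer, 11.98 TPM in reporter-positive cells, 4.43 TPM in reporter-negative CD44+ cells and 3.34 TPM in CD44-negative α6+ cells. Lgmn, an endosomal protease, had 6.04 TPM after transfer and 16.9 TPM in CD44-negative α6+ cells. Of the 7 promoter factors that recruit Ciita, Rfx5, an RFX subunit, had 3.89 TPM in reporter-positive cells and 9.96 TPM in reporter-negative CD44+ cells, and 6 were under 2-fold apart there. In the comparisons after transfer, and in reporter-positive or reporter-negative CD44+ over CD44-negative α6+ cells, 0 of these 7 were at least 2-fold apart.

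Many interferon-gamma signalling and class I genes were higher in reporter-negative CD44+ cells. In reporter-negative CD44+ over CD44-negative α6+ cells, 14 of 20 interferon-gamma genes were at least 2-fold higher and 0 lower (all genes 16.8% and 6.18%), with a median log2 fold of 1.59 beside 0.09 over all genes. These included Irf1, an early interferon target, at 42.8 and 6.59 TPM and the GTPase Igtp at 27.6 and 3.93 TPM, reporter-negative CD44+ cells first. Of 19 class I genes, 12 were higher and 0 lower (median 1.13), B2m among them at 760 and 302.6 TPM. In reporter-positive over reporter-negative CD44+ cells, 14 of 20 interferon-gamma genes and 13 of 19 class I genes were at least 2-fold lower (all genes 16.5%), with medians of -1.59 and -1.19 beside -0.03 over all genes. Nlrc5, the transactivator of class I, had 5.501 TPM in reporter-positive cells and 13.9 TPM in reporter-negative CD44+ cells.

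After transfer, the lists and the members gave different counts. Against CD44-negative α6+ cells, 0 of 19 class I genes were at least 2-fold apart, and 3 of 20 interferon-gamma genes were higher and 0 lower (all genes 3.91% and 4.71%), while 6 of 7 members were lower. Cxcl9, a chemokine induced by interferon-gamma, was found in 48 cells after transfer (mean 12.3 TPM) and in 6 of 91 CD44-negative α6+ cells (4.72 TPM). Socs1, a feedback inhibitor of the pathway, had 6.83 and 2.54 TPM in the same order. Against reporter-positive cells, 3 of the 20, Irf9 and Igtp among them, were at least 2-fold higher after transfer and 0 were lower (all genes 3.17% and 8.6%), with 0 of 19 class I genes apart. In reporter-positive over CD44-negative α6+ cells, 2 of the 20 were higher and 1 lower, which is near the shares over all genes (9.8% and 4.78%), and 0 of 19 class I genes were apart. In CD44-negative α6+ over α6-negative cells, 5 of the 20 were higher and 3 lower, and 2 of 19 class I genes were higher and 0 lower, where 8.66% of all genes were higher and 25.7% lower.

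Cd80, a co-stimulatory ligand for CD28 and CTLA-4, was highest in reporter-positive cells. Its mean was 1.24 TPM after transfer, 8.44 TPM in reporter-positive cells (79 of which had it), 0.364 TPM in reporter-negative CD44+ cells and 0.620 TPM in CD44-negative α6+ cells. Within reporter-positive cells, Cd80 was found in 79.3% of cells with a chain gene and 71.2% of cells without. In CD44-negative α6+ cells, it was found in 0 of 16 cells with 3 or more chains and in 5 of 43 with none.

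Among 11515 genes ranked over the 91 CD44-negative α6+ cells by Spearman's rho with the mean level of the 6 chains, the nearest was H2-Q5, a class I locus, at 0.547. Heph, a ferroxidase, Cxadr, a junction protein, Fcgbp, Postn, which encodes the matrix protein periostin, and Fam134b followed, and then H2-Q6 at 0.466, Txnip, Zbtb16 and Gm13306 at 0.418. The median gene had a rho of -0.001. Each named gene had a higher rho over the 42 cells with Xist than over the 44 with Y-linked transcripts. For H2-Q5 these were 0.742 and 0.49, for Cxadr 0.59 and 0.412, and for Txnip 0.735 and 0.153. Over the cells after transfer, H2-Q5 and H2-Q6 had rho of 0.309 and 0.303, and Heph had 0.025. Over the reporter-positive cells, rho was 0.086 for H2-Q5, 0.313 for H2-Q6 and 0.152 for Heph. The H2-Q genes are near copies of each other, so the reads of H2-Q5 and H2-Q6 cannot be split with certainty.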

How the data were processed

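Tumour cells of a mouse skin carcinoma model were sorted singly into plates and sequenced by Smart-seq2, per the labels' protocols. The authors deposited TPM for 46517 gene rows and 92 spike-in rows, and per the submitters' processing notes they used Bowtie2 2.2.9, RSEM 1.2.30 and mm10. The handling of multiply mapped reads is not stated in the sources used here. Depth cannot be read from TPM, so genes per library stand in for it.

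A library was kept when 2000 or more genes reached 1 TPM, which held for 696 of 908. Plates that repeat wells of another plate were then set aside. Pairs of repeats were found by correlation of profiles without the members. A pair was taken at an r of at least 0.88. It was also taken at a lower r when that r stood 0.05 above the next library, seen from both sides. The lowest r among the pairs taken was 0.672, between CSC2 and OT_D. Group means were compared as log2 of mean TPM plus 1, on genes with a mean of at least 1 TPM in either group, and called at 2-fold. Exact 95% binomial intervals cover counting error only. Since no animal is named, no test between groups was run. The calculation was tested on simulated data. The 7 members, the gene lists and the marker lists were chosen with earlier results of these data known. All members are named; list genes are named when at least 2-fold apart with a mean of at least 5 TPM in the higher group, and the 10 genes most like the chains are named by rank over CD44-negative α6+ cells. H2-Oa, H2-Ob, Ctss and the genes set beside the chains within the CD44-negative gate were named outside this rule. Motifs were searched in RefSeq promoters (GRCm38.p6), and gene positions come from GENCODE M21, which matched 46005 gene identifiers. Detection limits, gene minimum, pseudocount, rescaling, plates, cell classes, sex-linked transcripts and repeats were varied. Python 3.11.15, numpy 2.4.6, pandas 2.3.3, scipy 1.17.1 and matplotlib 3.10.9 were used.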

Additional observations from a re-analysis of the deposited data

Results flagged for a closer look

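The plate OT_C is labelled after transfer and was left out of the comparisons because its wells repeat those of the reporter-positive plate CSC1. It holds class II signal that no comparison uses: Cd74, H2-Aa and H2-Ab1 were found together in 6 of its 72 kept libraries, and in 7 of the 73 cells of CSC1. The libraries are not independent of the CSC1 cells, and the count adds no evidence to theirs.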

How the results depend on the processing

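Over all alternatives, the main results moved by more than 1.5 times, or for a share beyond its exact interval, in 27 cases and turned a called direction in 1. Values of single genes did so in 180 and 5 cases, and 766 did neither. The main results did not move so far with detection at any TPM above 0, at least 4000 genes per library, TPM rescaled without spike-in and ribosomal rows, a pseudocount of 0.1, plates OT1 and OT_A, OT2 alone, 1 library of each repeat pair, the highest cell of each group left out, or CD44-negative cells with Xist. The same held when cells with both Xist and Y-linked transcripts were left out, an alternative chosen after seeing the data. The share of reporter-positive cells with Cd74, H2-Aa and H2-Ab1 was 1.9% at a TPM of at least 10 and 0.0% without CSC1. Among libraries with 6000 to 8000 genes, that share was 0.0% in reporter-negative CD44+ and 4.35% in CD44-negative α6+ cells.

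The remaining values are log2 folds of the summed chains. After transfer over reporter-positive, the fold was -1.17 with no gene minimum, -1.34 at 6000 to 8000 genes, -1.15 with OT_B alone, 0.57 with all 6 plates, 0.85 without CSC1 and -1.07 without CSC2. After transfer over CD44-negative α6+, it was -2.22 at 6000 to 8000 genes, -2.49 with a pseudocount of 10, -2.24 with all 6 plates and -2.85 against cells with Y-linked transcripts. Reporter-positive over reporter-negative CD44+ gave -3.8 with no minimum, -0.52 at 6000 to 8000 genes, -3.69 with a pseudocount of 10 and -6.02 without CSC1. Reporter-positive over CD44-negative α6+ gave -0.88 at 6000 to 8000 genes, -2.13 with a pseudocount of 10, -4.37 without CSC1 and -2.15 against cells with Y-linked transcripts. Reporter-negative CD44+ over CD44-negative α6+ turned to -0.36 at 6000 to 8000 genes and was 2.32 against cells with Y-linked transcripts. CD44-negative α6+ over α6-negative gave 2.28 with no minimum, 2.22 with a pseudocount of 10, and 2.31 both for keratinocyte-led cells and for cells with Y-linked transcripts.

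At 6000 to 8000 genes, single genes also turned: H2-Aa (1.49) and H2-Eb1 (0.84) in reporter-positive over reporter-negative CD44+, and H2-Aa (-1.54) and H2-Ab1 (-0.49) in reporter-negative CD44+ over CD44-negative α6+. That range leaves out the highest cells of both reporter-negative α6+ groups. H2-Aa in CD44-negative α6+ over α6-negative was -0.01 with no minimum. No paired analysis was possible because the labels give wells and no replicate numbers, and no result comes from a test.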
